A study of Drosophila melanogaster with 4 samples.

Results

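The long stretches described here are gaps of 30000 bp or more between neighbouring enriched regions of H3K9acS10P, on chromosome arms X, 2L, 3L and 3R of Drosophila melanogaster. They were chosen from the series-level list of enriched regions, by taking the distance from the end of each region to the start of the next. There were 381 of them among the 11739 gaps of that list on these arms. The samples were whole wild-type embryos of the Oregon-R strain, aged 14 to 16 h, with 2 ChIP libraries made with 1 antibody lot and 2 input libraries, and no treatment. All tissues of the embryo are mixed, and lists of regions hold no markers against which a tissue could be checked. Whether the replicates were separate embryo collections is not stated, so the difference between them may be technical.

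The antibody recognises histone H3 acetylated at lysine 9 and phosphorylated at the adjoining serine. Acetylation of this lysine is a mark of active promoters and genes. Phosphorylation of the serine marks condensed chromosomes in mitosis, where Aurora B places it, and in fly interphase nuclei it is placed by the kinase JIL-1, which lies on active chromatin. Fly arms also carry long blocks of silent chromatin, which hold tissue-specific genes that are off in most cells and which lack active histone marks. Towards the centromere the arms pass into heterochromatin, which is rich in repeats and carries methylation at the same lysine that is acetylated in active genes.

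The name "stretches without the mark" held in full for fewer than all of them. Of the 381, 171 met no region of any of the 3 lists, the series-level list and those of ChIP replicates 1 and 2. Another 154 were touched by a replicate region only across an edge, by no more than 978 bp (replicate 2) or 560 bp (replicate 1). The other 56 held a whole region of a replicate inside. The lists give regions and no signal between them, so each stretch is one in which no series-level region was called. The alignability of the stretches and the depth of the libraries are unknown here. Because the series-level regions chose the stretches, and that list belongs to the same series as the replicate lists and largely contains them, every value below is a description and no test was made.

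The stretches ranged in length from 30025 to 152159 bp. They spanned 19.1 Mb, which was 19.5% of the 97.9 Mb of the 4 arms and 27.7% of all bases between regions. Enriched regions of the series-level list covered 29.5% of the same arms. The stretches thus made up 3.25% of the gaps and a far larger share of their bases. Their lengths had a lower quartile of 34.7 kb, a median of 42.9 kb and an upper quartile of 56.5 kb, against a median of 2072 bp in the other gaps. Of the 381, 133 reached 50 kb and 15 reached 100 kb.

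X and 2L held more of them than 3L and 3R, and those on 3R were the shortest. There were 104 on X, 106 on 2L, 95 on 3L and 76 on 3R. Per Mb of arm that was 4.64 on X, 4.61 on 2L, 3.87 on 3L and 2.72 on 3R. X and 2L were alike in number per Mb, and 3R had the lowest. The share of the arm they took up was 25.6% on X, 22.8% on 2L, 19.4% on 3L and 11.8% on 3R. Enriched regions covered 33.1% of 3R, the highest of the 4 arms, and 26.6% of 2L, the lowest. Median lengths ran from 45.3 kb on X through 44.5 kb on 2L and 42.6 kb on 3L to 38.1 kb on 3R. No stretch on 3R reached 100 kb, while 8 did on X, 3 on 2L and 4 on 3L.

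**Figure D1:**
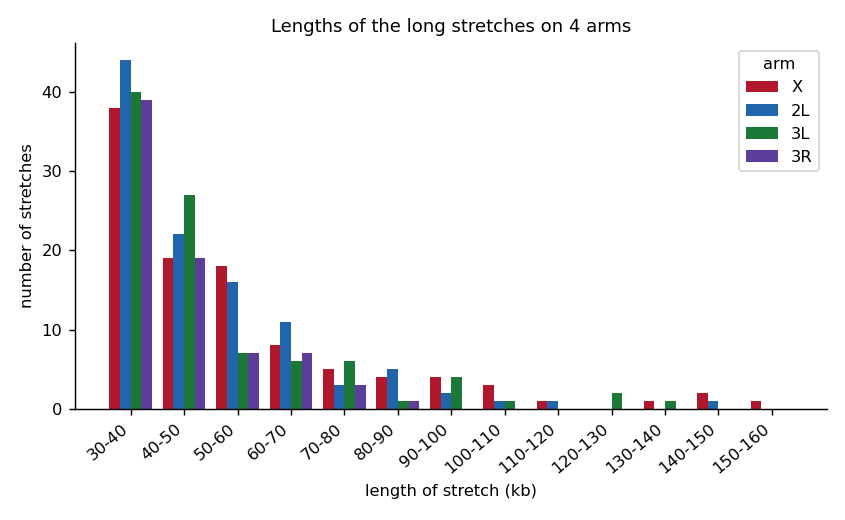
Number of long stretches (vertical axis) in classes of length in kb (horizontal axis), with a bar for each of arms X, 2L, 3L and 3R. All 4 arms have most of their stretches under 50 kb, and the 15 stretches of 100 kb or more lie on X, 2L and 3L.

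The order of the arms by share of bases was the same in replicate 2 taken alone and differed in replicate 1. Gaps of 30 kb or more in the list of replicate 2 took up 45.0% of X, 39.8% of 2L, 36.3% of 3L and 29.3% of 3R. In the list of replicate 1, which holds fewer regions, they took up 70.0% of X, 72.8% of 2L, 70.8% of 3L and 66.7% of 3R. 3R had the lowest share in all 3 lists, and the 4 arms lay closer together in replicate 1. The replicate lists hold 3576 regions (replicate 1) and 7828 regions (replicate 2) on these arms, against 11750 in the series-level list. Their median gaps were 7.25 kb (replicate 1) and 3.27 kb (replicate 2), against 2.21 kb in the series-level list.

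Coordinates are on FlyBase r5. The longest stretch was X:21610242-21762400, of 152 kb, which lay 0.66 Mb from the high end of the arm sequence. No region of either replicate touched it. Its flanking regions were narrow, 1075 bp with a score of 0.86 and 1469 bp with a score of 1.77, and neither overlapped a replicate region. Scores are the authors' own, on a scale that is not stated. In the lists of single replicates this stretch lay within a region-free run of 344 kb in replicate 1 and 260 kb in replicate 2. It was thus part of a wider empty stretch in both replicates.

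The next 4 were interior to their arms, 3 of them on X. X:9295565-9445070, of 150 kb, lay 41.8% of the way along the arm and was bounded on its right by a region of 6157 bp that scored 1.57 and overlapped both replicates. Replicate 1 reached into it by 143 bp, and replicate 2 did not. 2L:17804127-17953525, of 149 kb, was free of regions in all 3 lists and was bounded by regions of 1257 and 1149 bp with scores of 0.48 and 0.33. X:7293590-7435087, of 141 kb, was likewise free in all 3 lists and lay within the longest region-free run that replicate 2 had on these arms, 323 kb. In X:12834697-12973721, of 139 kb, a replicate 2 region crossed the edge by 11 bp.

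The 3 longest on 3L all lay in the last 10% of that arm, which faces the centromere. 3L:23472097-23606220, of 134 kb, held 1 replicate 2 region of 1319 bp that scored 0.56. 3L:24374755-24500690, of 126 kb, lay 42.9 kb from the end of the arm sequence and held 1 replicate 2 region, so that its longest part free of all 3 lists was 83.8 kb. 3L:23150346-23272232, of 122 kb, was free in all 3 lists. No replicate 1 region touched any of these 3. The 10 longest were completed by 2L:9011693-9125248, of 114 kb, and X:4996657-5106978, of 110 kb. The first of these was free of replicate regions inside and was the only one of the 10 with flanks that both overlapped replicate 1 alone. The second held 1 replicate 2 region, and its longest part free of all 3 lists was 72.4 kb.

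The other stretches among the 3 longest of their arm were 2L:22556107-22664852, of 109 kb, and 3 on 3R. The 2L stretch lay 0.35 Mb from the centromere-facing end of the sequence and held a replicate 2 region that scored 1.15. The longest on 3R were 3R:4672501-4756408, of 83.9 kb, 3R:21933541-22012834, of 79.3 kb, and 3R:27789128-27864070, of 74.9 kb. The first and second of these were free in all 3 lists. At the third, replicate 2 crossed an edge, and it lay near the telomere-facing end, at 99.7% of the arm length.

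At the 30000 bp threshold the gaps formed a continuous series. The 5 shortest stretches were 30025 bp (3R:19372653-19402677), 30102 bp (3L:15616279-15646380), 30165 bp (2L:19589545-19619709), 30185 bp (2L:17009314-17039498) and 30209 bp (3R:3486047-3516255). The 5 longest gaps below the threshold were 29917 bp (3R:21241368-21271284), 29891 bp (3R:10973561-11003451), 29836 bp (2L:20607423-20637258), 29829 bp (3R:21210448-21240276) and 29790 bp (3R:15920667-15950456). None of these 10 held a whole replicate region, and 4 were touched by replicate 2 across an edge. Gaps of 15 to 30 kb numbered 781 and spanned 16.1 Mb, so the threshold cut through a tail that continued below it.

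Long stretches occurred in each of 10 equal parts of every arm, but not in every 1 Mb, and gathered in certain places. Of 96 full windows of 1 Mb, 9 held the midpoint of none and 32 held 5 or more. In 3 windows the stretches took up most of the bases. 3L:23000001-24000000 was highest, with 11 stretches and 73.1% of its bases within them, where series-level regions covered 6.22% of bases, replicate 2 regions 2.76% and replicate 1 regions 1.76%. In 3L:18000001-19000000, interior to the arm, 12 stretches took up 62.9% of bases and regions covered 13.1%. In 2L:22000001-23000000, 9 stretches took up 55.0%. On X the highest window was 12000001 to 13000000, with 8 stretches and 47.6% of bases.

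**Figure D2:**
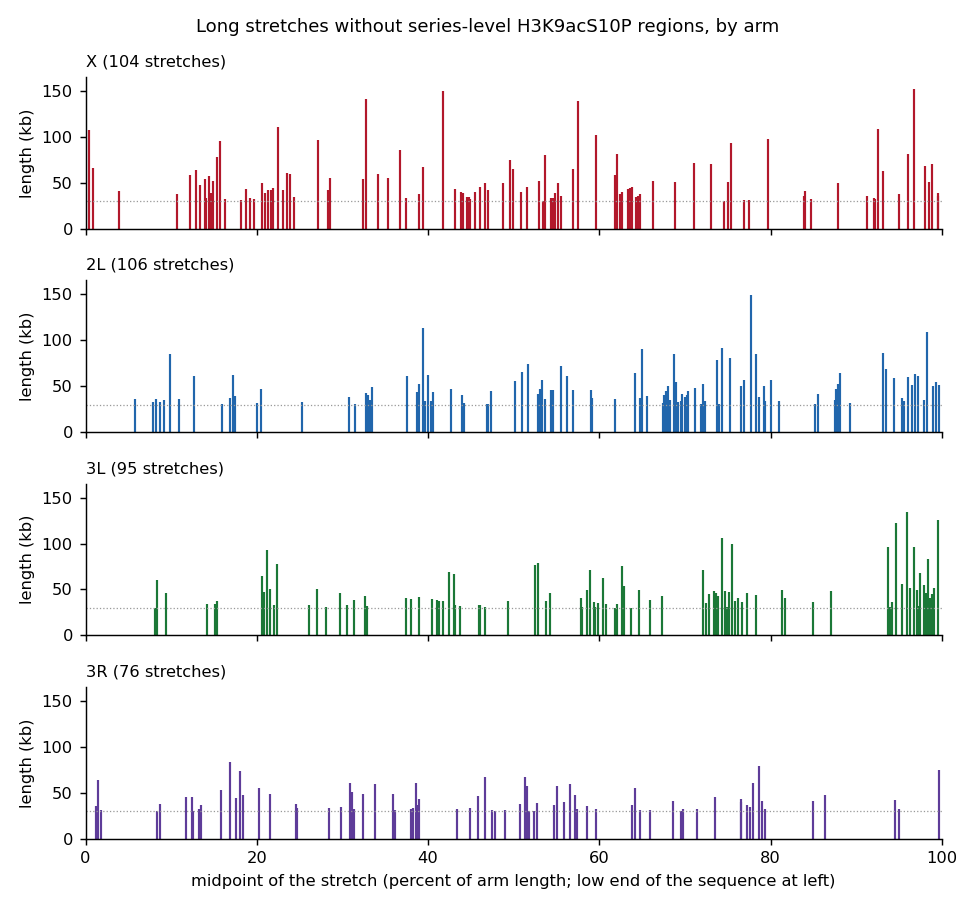
Each vertical line is 1 long stretch, placed at its midpoint as a percent of arm length (horizontal axis) with its length in kb (vertical axis), for X, 2L, 3L and 3R from top to bottom; the dotted line is the 30 kb threshold. The stretches crowd at the right end of 3L, where the centromere-facing 10% of the arm has 50.9% of its bases within them, and are shortest in median on 3R.

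More of them lay in the 10% of an arm nearest the centromere than in the 10% nearest the telomere. The centromere lies beyond the high end of the sequences of X, 2L and 3L and beyond the low end of that of 3R. The centromere-facing ends of the 4 arms held 51 of the 381, which took up 31.4% of the bases there and had a median of 51.5 kb. The telomere-facing ends held 15, which took up 7.52% of the bases and had a median of 41.3 kb. Outside these counts stand the 109 kb before the first region of 3L, telomere-facing, and the 38.6 kb after the last of 2L, centromere-facing. The counts were closest on 3R, with 5 stretches at its centromere-facing end and 3 at its telomere-facing one. The corresponding counts were 13 and 3 on X, 14 and 6 on 2L, and 19 and 3 on 3L. On 3R the stretches took up 7.13% of the centromere-facing end, below the 11.8% of the whole arm. Long stretches were 5.13% of the 995 gaps at centromere-facing ends and 1.02% of the 1475 at telomere-facing ends. Interior parts were as high, with 5.17% in part 6 of 10 and 5.28% in part 8, counted from the low end of each arm.

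Both ends together held 66 of the 381, or 17.3%, against 21.0% of all gaps, a similar share. Of the 133 stretches of 50 kb or more 25.6% lay there, above the share of all gaps. With each arm divided into 10 equal parts, part 8 of 2L, well inside the arm, had 45.1% of its bases within long stretches, and regions covered 14.9% there. On X part 2 had 35.2% and part 1, at the telomere-facing end, 9.61%. The lowest share on any arm was 3.19%, in part 9 of 3R, where regions covered 38.4% of bases. Large intervals without a single long stretch also occurred. The longest between 2 consecutive stretches of each arm were 3R:24111089-26342468, of 2.23 Mb with 366 regions, 3L:21393752-22954629, of 1.56 Mb with 302 regions, X:901627-2385066, of 1.48 Mb with 249 regions, and 2L:5840994-7065853, of 1.22 Mb with 200 regions. Regions covered from 43.9% of bases in the 3R interval to 53.7% in the X interval. The 3L interval adjoined a cluster of long stretches directly, ending where the 95.7 kb stretch 3L:22954630-23050370 began. Spans before the first stretch of an arm were left out. On 3L and 2L the first stretches began at 1979415 and 1313213, so the spans before them were longer than the intervals named. The span on 3L was not free of long empty sequence, since it began with 109 kb without a series-level region.

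Many long stretches lay close to another. Between consecutive stretches of an arm the median number of regions was 9, and the median distance was 74.5 kb. On 3R these medians were 24 regions and 156 kb, and on 2L 6 regions and 48.3 kb. In 63 of 377 consecutive pairs a single region stood between them. When stretches no more than 10 kb apart were joined into runs, 135 of the 381 fell into 58 runs of 2 or more and 246 stood alone. The share in such runs was 43.4% on 2L, 36.5% on X, 34.7% on 3L and 23.7% on 3R.

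The longest run joined 7 stretches on 3L, from 23995071 to 24356459, a span of 361 kb. It was broken by 6 regions that together covered 8.97 kb, or 2.48% of the span, the widest of them 1878 bp. Replicate 1 had 1 region of 1.74 kb in this span and replicate 2 had 3 regions of 4.91 kb in all. The run next to it on the same arm, 3L:23710132-23964125, joined 4 stretches over 254 kb. Regions covered 2.43% of that span, with 1 region in each replicate. The third was 2L:20106402-20311112, which joined 4 stretches over 205 kb, with no replicate 1 region and 3 replicate 2 regions totalling 4.41 kb. All 3 thus lay in the last part of their arm, from 87.8 to 98.5% of its length.

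The regions that bounded the long stretches were narrower than other regions, and their scores were similar. The 381 stretches had 699 flanking regions, since 63 regions flanked a stretch on both sides. Their median width was 1433 bp, against 1778 bp in the 11051 other regions of the 4 arms. Of the flanking regions 76.4% were under 2 kb and 4.15% were 5 kb or wider, against 59.5% and 8.86% of the other regions. Widths were lower on each of the 4 arms, with medians from 1368 bp on 3R to 1522 bp on X for flanking regions, against 1752 bp on 3L to 1862 bp on X for others. The median score was 0.47 in flanking regions and 0.48 in others. On X, where scores of all regions ran higher, it was 0.54 and 0.55.

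Fewer of the flanking regions overlapped a replicate list. Of the 699, 104 (14.9%) overlapped both replicates, where the share of all 11750 regions on these arms was 22.9%. Replicate 2 alone overlapped 240 (34.3%), against 39.5% of all regions, and replicate 1 alone overlapped 24 (3.43%), against 3.27%. The other 331 (47.4%) overlapped neither, against 34.3% of all regions. Wide regions meet a replicate region more often than narrow ones do, and flanking regions were narrower, so width and overlap were not separated here. On X 52.6% of flanking regions overlapped neither replicate, and on 2L 43.2% did.

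Taken stretch by stretch, both flanks overlapped a replicate region in 95 of the 381 (24.9%), against 45.9% of all gaps. One flank did in 204 (53.5%), against 39.6% of all gaps, and neither did in 82 (21.5%), against 14.5%. Both flanks overlapped both replicates at 9 stretches (2.36%), against 7.50% of all gaps. When regions that overlapped no replicate were passed over, the stretches grew to a median of 67.1 kb, and the 95 with 2 overlapped flanks were unchanged. When only regions that overlapped both replicates ended them, the median was 174 kb. Both medians are over the 381 stretches, and a joined gap that holds several of them counts once for each. The longest stretch, on X, was 260 kb in the first case and 344 kb in the second, against 152 kb as defined. The stretch X:7293590-7435087 was 323 and 383 kb in these cases, against 141 kb.

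High-scoring regions at the edge of a long stretch were of contrasting kinds. The highest score among flanking regions was 2.55, at 3L:24098027-24099059, a region of 1033 bp that overlapped no replicate region and stood alone between stretches of 46.4 and 83.5 kb. The next, 3L:23365318-23366341, scored 2.03 over 1024 bp and also overlapped neither. The third, 2L:18441686-18444129, scored 1.86 over 2444 bp and matched 1 region of replicate 1 that scored 1.56 and 1 of replicate 2 that scored 2.10. The widest flanking regions all overlapped both replicates. They were 3L:5126630-5140567, of 13.9 kb, 3R:19173817-19187291, of 13.5 kb, and 3L:7313092-7324197, of 11.1 kb. The first of these corresponded to 2 regions in each replicate, which covered 12824 bp (replicate 2) and 9354 bp (replicate 1).

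The 63 regions that stood alone between 2 long stretches were compact, with a median width of 1387 bp and none of 5 kb or more. Of these, 37 overlapped neither replicate, 19 replicate 2 alone, 2 replicate 1 alone and 5 both. The 5 highest scores among them were 2.55 at the 3L region just named, 1.64 at 3L:24049835-24051666, 1.29 at 2L:20192559-20193641, 0.72 at X:3139068-3140677 and 0.63 at 3L:14590617-14592823. Of these 5 only the last overlapped a replicate region, and it overlapped both. One of the few others found in both was X:3465964-3468222, of 2259 bp, between stretches of 78.0 and 95.3 kb.

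Coverage changed sharply at the edges in every list, which the choice of edges fixed in the series-level list and largely in the others. Of the replicate regions on these arms, 3515 of 3576 (replicate 1) and 7583 of 7828 (replicate 2) overlapped a series-level region. In the first 1 kb outside the 762 edges, which lies in the flanking region by construction of the series-level gaps, replicate 2 regions covered 42.6% of bases and replicate 1 regions 11.6%. In the first 1 kb inside they covered 2.60% in replicate 2 and 0.417% in replicate 1, and in the next 1 kb 0.522% and 0.0332%. Farther out the series-level list fell to 24.6% at 2 to 3 kb outside and stood at 19.3% at 19 to 20 kb outside, below the 29.5% of the arms as a whole. Replicate 2 covered 13.6% there, against 21.8% of the arms, and replicate 1 covered 5.59%, against 8.61%. The surroundings of long stretches, which include other long stretches, were thus less covered than the arms in all 3 lists.

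**Figure D3:**
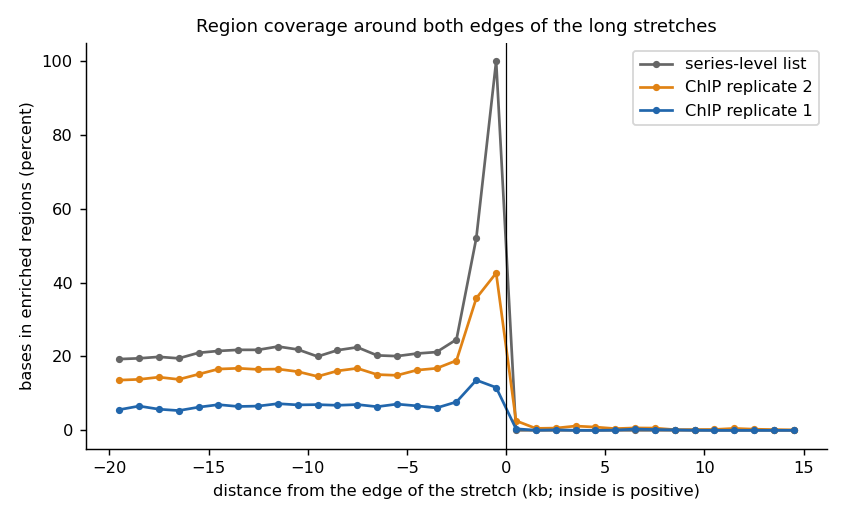
Percent of bases in enriched regions (vertical axis) in bins of 1 kb by distance from the edge of a long stretch (horizontal axis, inside positive), averaged over 762 edges, for the series-level list and both ChIP replicates. Coverage in replicate 2 is 42.6% in the bin just outside and 2.60% in the bin just inside, and in replicate 1 it is 11.6% and 0.417%. The edges are ends of series-level regions, so this change is largely set by the choice of edges.

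Whole regions of a replicate inside the long stretches were few and small. Replicate 1 had 6 such regions, each in a different stretch, which was 1.57% of the 381, where 0.503% of all 11739 gaps held one. Replicate 2 had 53 regions in 50 stretches, or 13.1%, where 2.04% of all gaps held one. For either replicate it was 56 stretches, or 14.7%, against 2.53% of all gaps. Most gaps are too short to hold a whole region, so the share is set in part by length. Per Mb of gap there were 0.315 replicate 1 regions in long stretches, 0.744 in gaps of 15 to 30 kb and 1.10 in all gaps under 30 kb together. For replicate 2 the values were 2.78, 3.28 and 3.86 per Mb. Within the long stretches replicate 2 had 3.51 regions per Mb at 30 to 50 kb and 2.06 at 50 to 100 kb. The first was above the value for gaps of 15 to 30 kb and below that for all gaps under 30 kb. Only against gaps of 15 to 30 kb did the lower value of replicate 2 thus come from the stretches of 50 kb or more.

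Counting any overlap of 1 bp or more, the long stretches resembled other gaps. Replicate 1 met 36 of them, or 9.45%, against 8.09% of all gaps. Replicate 2 met 181, or 47.5%, against 48.1% of all gaps, and either replicate met 210, or 55.1%, against 54.0%. Every gap has 2 edges whatever its length, and most of these meetings were across an edge. In bases, replicate 1 regions covered 12.0 kb, or 0.0628%, of the long stretches, against 0.476% of the other gaps. Replicate 2 regions covered 95.2 kb, or 0.500%, against 1.93%. Short gaps have more edges per base, so regions that cross an edge weigh more in their share, and this was not separated.

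**Figure D4:**
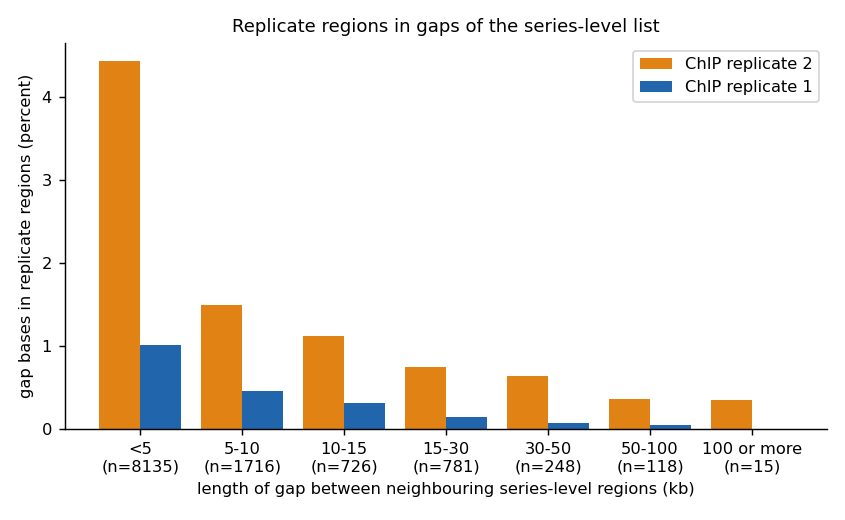
Percent of gap bases that lie in regions of ChIP replicate 2 or replicate 1 (vertical axis), by length class of the gap in kb (horizontal axis, n is the number of gaps). In gaps under 5 kb replicate 2 covers 4.43% and replicate 1 covers 1.01%. In the 15 gaps of 100 kb or more they cover 0.353% and 0.00765%. Regions that cross an edge weigh more in short gaps, which have more edges per base.

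No long stretch held whole regions of both replicates, and none of the 59 regions inside overlapped a region of the other replicate. Over all 11739 gaps, 59 held a region of replicate 1, 239 of replicate 2 and 297 of either, so holding both was rare everywhere. With replicate 1 regions in 6 stretches only, the absence of both says little about the stretches. The regions inside come, by the choice of the stretches, from those that overlap no series-level region. These numbered 61 in replicate 1 and 245 in replicate 2. How many of them, or of all replicate regions, overlap the other replicate was not counted, so the lack of overlap has no background here. The 6 regions of replicate 1 were 1313 to 1850 bp wide, with a median of 1405 bp, against 2069 bp in the whole replicate 1 list on these arms. Their scores ran from 0.45 to 1.04, with a median of 0.61 against 0.74 in the list. The 53 of replicate 2 were 1305 to 2130 bp wide, with a median of 1385 bp against 2012 bp, and a median score of 0.60 against 0.68. Regions inside long stretches were thus near the lower width limit of 1301 bp in both replicate lists. Replicate regions wholly inside gaps under 30 kb had similar scores. By length class their medians were 0.60 to 0.66 in replicate 1 and 0.57 to 0.61 in replicate 2. The low scores were thus not particular to the long stretches, and widths were not compared in this way. Their median distance to the nearer edge was 6.16 kb in replicate 1 and 7.76 kb in replicate 2, and 20 of the 53 lay within 5 kb of an edge.

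In replicate 1 the highest score inside a long stretch was 1.04, at 2L:1894114-1895522. The next 4 were 0.70 at 3L:14615742-14617177, 0.64 at 3R:12106438-12107750, 0.57 at X:15966155-15968004 and 0.49 at 2L:12483009-12484394. In replicate 2 the highest was 1.96, at 3L:24415481-24416811, which exceeded 99.8% of replicate 2 scores on these arms. It lay 40.7 kb inside the 126 kb stretch at the end of 3L. The next 4 were 1.15 at 2L:22633247-22634661, 0.99 at 3L:24331155-24332463, 0.92 at X:5069330-5070684 and 0.89 at 2L:8970659-8972021. The first 3 of these 5 lay in the centromere-facing 10% of their arm, and all 5 lay over 20 kb from an edge.

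The 5 stretches with the most replicate bases inside held less than 3 kb each. 2L:15068852-15108614, of 39.8 kb, held 2 replicate 2 regions of 2788 bp in all, and its longest part free of all 3 lists was 18.4 kb. 2L:8604835-8665718 and 3L:9543694-9585061 also held 2 replicate 2 regions each, of 2765 and 2744 bp in all. X:14028674-14068486 held 1 of 2130 bp in replicate 2, and X:15902418-15973924 held 1 of 1850 bp in replicate 1. The first 3 of these were the only stretches with more than 1 whole replicate region.

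The empty runs of single replicates around the long stretches varied widely. Stretches that no replicate region touched lie in a gap of that replicate by definition, which was so for 345 of the 381 in replicate 1 and 200 in replicate 2; the touched ones are those counted above, at shares near those of all gaps. The longest region-free run that met a stretch had a median of 150 kb in replicate 1 and 65.0 kb in replicate 2, against the 42.9 kb median of the stretches themselves. A run that met several stretches was counted once for each, and the replicate lists hold fewer regions than the series-level list. The longest run was shorter than its stretch at 7 stretches in replicate 1 and 62 in replicate 2. With all 3 lists combined, 353 of the 381 kept a piece of 30 kb or more free of any region, and the median of the longest free piece was 41.1 kb. The 28 that did not numbered 10 on 2L, 8 on 3L, 6 on 3R and 4 on X.

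**Figure D5:**
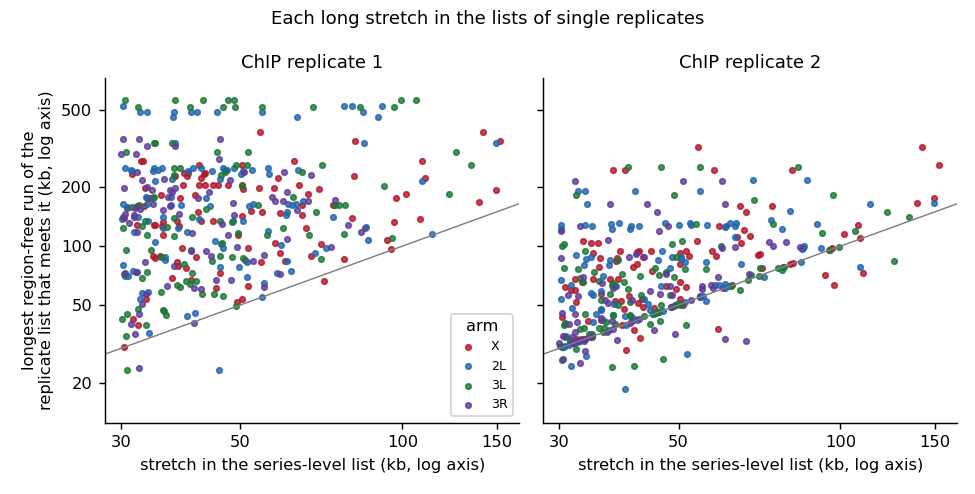
Each point is 1 of the 381 long stretches, with its length in the series-level list in kb (horizontal log axis) against the longest region-free run of the replicate list that meets it, in kb (vertical log axis), coloured by arm; the line marks equal lengths. In replicate 1 all but 7 points lie on or above the line, up to 561 kb; in replicate 2 all but 62 do, up to 323 kb.

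The longest empty runs of single replicates ran across several series-level stretches. In replicate 1 the longest, 561 kb on 3L, met 7 stretches of 30.5 to 106 kb. They included 3L:18178976-18285176, of 106 kb, and 3L:18481927-18581484, of 99.6 kb. In replicate 2 the longest runs at these 7 stretches were 44.3 to 119 kb. On 2L the longest replicate 1 run was 521 kb and met 4 stretches of 30.2 to 91.8 kb, the longest of them 2L:17040938-17132749. The longest replicate 2 runs at these 4 were 98.3 to 151 kb. The longest replicate 2 run, 323 kb on X, met the 141 kb stretch and its neighbour X:7236764-7291086, of 54.3 kb, and replicate 1 had a run of 382 kb at both.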

How the data were processed

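ChIP libraries (2) and input libraries (2) of wild-type Oregon-R embryos aged 14 to 16 h were profiled. The submitters' processing notes name Bowtie 0.12.7, and coordinates are on FlyBase r5, per the file headers. The deposited lists, 1 per ChIP replicate and 1 for the series, give each region's first base, last base and the authors' score. The caller, its threshold, the scale of the score and how replicates were combined are not stated in any source at hand. Depth is unknown, since the lists hold no read counts.

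Gaps, flanks and overlaps were computed with pandas 2.3.3, NumPy 2.4.6 and SciPy 1.17.1 in Python 3.11.15, with 1-based inclusive coordinates, and were tested on simulated data with planted gaps. Regions directly adjoining each other leave no gap. A replicate region was inside when it lay wholly within a stretch, and overlap needed 1 bp. Arm 2R was not analysed here. The only gene table is on Release 6, so stretches carry no gene names or sequences. Named stretches followed a rule: the longest overall and per arm, those nearest the threshold, and the extremes of flanks, inside regions, lone regions and runs. The other stretches named with the 1 Mb windows, the intervals without stretches, the region X:3465964-3468222 and the longest replicate runs were chosen after their values were seen. The members and lists were chosen with earlier results of these data known. Alternatives were gap lengths of 20 and 50 kb, regions at or above the median score, regions that overlap a replicate list, each replicate list alone, the union of the 3 lists, arm ends, and any overlap as inside.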

Additional observations from a re-analysis of the deposited data

How the results depend on the processing

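Of 42 values recomputed under an alternative, 21 stayed close to the reported value and 21 moved. Values were counted as close within 1.5 times. The share in the outermost 10% at either end of an arm was counted as close within its 95% Wilson interval of 13.9 to 21.4%. That interval treats the stretches as independent draws, which neighbouring stretches of 1 list are not, so it served only as a tolerance. With gaps of 20 kb or more there were 767 gaps, of which 10 held a replicate 1 region. With gaps of 50 kb or more there were 133 gaps with 9.64 Mb, of which 2 held a replicate 1 region and 19 a replicate 2 region, and 25.6% lay at the arm ends. With gaps ended only by regions whose score reached the median there were 697 gaps with 41.3 Mb, of which 173 and 495 held a region of replicate 1 and of replicate 2. With only regions that overlap a replicate list there were 611 gaps with 36.3 Mb, and 12 and 95 held such a region. In the list of a single replicate there were 625 to 773 gaps with 36.3 to 68.4 Mb, medians of 46.4 to 63.8 kb and 17.9 to 19.8% at the arm ends. Counting any overlap as inside gave 36 gaps for replicate 1 and 181 for replicate 2. Each of these settings changes by construction which gaps or overlaps are counted. The union of the 3 lists gave 358 gaps with 17.8 Mb, and counting the stretches beyond the outermost regions gave 383 with 19.2 Mb. No paired analysis was possible because the result comes from no test, and the input samples have no list here. No series-level list without one of the replicates was made. The lists give no reads, so a stretch with weak signal cannot be told from one with none.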

Other observations

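The stretches before the first and after the last region of an arm are not gaps between neighbouring regions and stand outside the 381. The arm sequence of 3L began with 109 kb without a series-level region, which neither replicate met, and the sequence of 2L ended with 38.6 kb, which a replicate 2 region met across an edge. The other 6 arm ends were 10.6, 11.8, 7.50, 6.61 and 5.74 kb long, and 6 bp at the low end of 3R.

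Among regions that scored 1 or more, a value chosen after the scores had been seen, 9 of the 33 that flanked a long stretch overlapped neither replicate list (27.3%), against 20 of the 407 others on these arms (4.91%). Those 9 were 1001 to 1832 bp wide, and 4 lay on 3L, 3 on 2L and 2 on X. Of these 9, 6 lay at the centromere-facing ends of 3L, 2L and X, beyond 93% of the arm length, a value not set beforehand. The other 3 were 3L:19201596-19202596, scoring 1.84, 2L:20192559-20193641, scoring 1.29, and X:11428813-11429866, scoring 1.18. These counts describe regions of 1 list and were not tested.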
